A study of Homo sapiens with 3 samples.

Results

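The genes described here were 9 genes of homologous recombination, BRCA1, BARD1, PALB2, BRCA2, RBBP8, RAD51C, XRCC2, RAD51AP1 and RAD54L. They were chosen by name among the 33538 genes of the deposited matrices, with earlier results of these data known. They were measured in HCT116, a human colorectal cancer line of the p53plus genotype, with the 3' droplet kit of 10x Genomics, which counts each captured mRNA molecule by a unique molecular identifier (UMI). Irradiated cells received 8 Gy, were isolated as giant cells on day 5 or 8 and were cultivated to day 10 or 11. The study's name for such cells is radiation-tolerant persister (RTP) cells. The library Mix2 pooled irradiated cells (IR, hashtag tag8), repopulated cells (R, tag7) that had regrown after irradiation, and non-irradiated cells (NC, tag6, 0 Gy), and the library Mix1 held irradiated cells only, from 4 isolation and harvest groups that carry no tag.

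Cells needed 200 or more detected genes and a mitochondrial share of UMIs under 10%, and a Mix2 cell was placed in a population when at least 80% of its hashtag counts were its own tag. IR cells were split at 3160 tag8 counts into strong IR and weak IR (500 to 3159 counts), R needed at least 104 tag7 counts and NC at least 374 tag6 counts. This gave 2216 strong IR, 6322 weak IR, 633 R, 15630 Mix1 and 810 NC cells, with median depths of 11861.5, 7216, 6933, 8995.5 and 7160.5 UMIs per cell. The split of IR cells by tag8 is a split by hashtag count and not a group of the labels. With 1 sample behind each population, differences were not tested and lack a check by replicates, and intervals (95%, exact unless stated) reflect nothing but counting error. Median mitochondrial shares were 5.65% in strong IR, 6.49% in weak IR, 7.16% in R and 3.41% in Mix1, against 6.003% in NC. The epithelial markers EPCAM, KRT8, KRT18 and CDH1 were present in all 5 populations (EPCAM at 264 to 400 CPM). Of 13 genes that mark erythroid, endothelial, immune cells or fibroblasts, the highest was CD68 at up to 6.71 CPM, and PTPRC, CD3E and CDH5 had 0 UMIs in the Mix2 populations. Between the libraries, 59 cell barcodes were shared.

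Homologous recombination repairs a double-strand break by copying an intact sister chromatid, and it is therefore used in S and G2 phases, after replication. RBBP8 (also called CtIP) starts the trimming of the broken end, BRCA1 and its partner BARD1 form a ubiquitin ligase at the break, and PALB2 bridges BRCA1 to BRCA2, which loads the recombinase onto single-stranded DNA. RAD51C and XRCC2 are paralogs of the recombinase that help its filament form, RAD51AP1 promotes the invasion of the sister strand, and RAD54L is a motor protein that works with the filament during strand exchange. Many genes of this pathway are transcribed under E2F factors, which activate S phase genes, so cycling and repair expression tend to move together in proliferating cells.

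The promoters of the 9 genes are set out because the genes differed in how far they followed the cell cycle in these data. A window from 250 bases before to 50 bases after the RefSeq transcription start (GRCh38.p14) was searched on both strands for the E2F core TTCCCGC, and it was present in 5 of 9 genes (BRCA1, RAD51AP1, BARD1, XRCC2 and RAD54L), against 6.56% of 27305 promoters of the same length. The longer words TTTCCCGC, TTTCGCGC, TTTGCCGC and TTTGGCGC, searched before the core was chosen, were present in 1 of 9 (XRCC2, where TTTCCCGC contains the core) and in 3.33% of all promoters. The cell cycle element TTTGAA was in 0 of 9 (15.4% of all promoters), and CCAAT was in 4 of 9 (35.7%). A match is a run of letters and not a bound site, and no match says only that the letters are not in the window. The windows of BRCA1 (chr17:43125315-43125614, minus strand), XRCC2 (chr7:152676092-152676391, minus strand), RAD51AP1 (chr12:4538640-4538939, plus strand), BRCA2 (chr13:32315258-32315557, plus strand) and RAD51C (chr17:58692352-58692651, plus strand) are given 5′ to 3′ on the strand of the gene, with the core or its reverse complement in capitals. The first 3 hold the core at positions −47, 21 and −21 relative to the start, and BRCA2 and RAD51C hold none.
BRCA1: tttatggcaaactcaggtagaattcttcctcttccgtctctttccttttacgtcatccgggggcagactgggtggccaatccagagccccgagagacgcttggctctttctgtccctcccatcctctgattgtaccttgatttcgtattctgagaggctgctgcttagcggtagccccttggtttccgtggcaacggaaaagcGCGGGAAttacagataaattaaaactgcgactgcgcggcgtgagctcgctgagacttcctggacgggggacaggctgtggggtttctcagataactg
XRCC2: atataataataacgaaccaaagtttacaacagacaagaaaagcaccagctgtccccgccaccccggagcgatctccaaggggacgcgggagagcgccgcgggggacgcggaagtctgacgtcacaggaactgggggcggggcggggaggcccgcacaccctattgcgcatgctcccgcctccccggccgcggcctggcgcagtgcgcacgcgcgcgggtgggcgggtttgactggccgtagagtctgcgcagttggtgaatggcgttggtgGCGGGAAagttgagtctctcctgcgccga
RAD51AP1: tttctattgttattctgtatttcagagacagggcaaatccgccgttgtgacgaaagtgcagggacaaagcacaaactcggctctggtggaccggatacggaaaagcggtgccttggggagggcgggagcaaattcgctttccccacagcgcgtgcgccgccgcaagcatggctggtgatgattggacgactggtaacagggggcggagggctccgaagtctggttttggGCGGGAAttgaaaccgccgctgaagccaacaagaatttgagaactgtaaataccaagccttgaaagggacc
BRCA2: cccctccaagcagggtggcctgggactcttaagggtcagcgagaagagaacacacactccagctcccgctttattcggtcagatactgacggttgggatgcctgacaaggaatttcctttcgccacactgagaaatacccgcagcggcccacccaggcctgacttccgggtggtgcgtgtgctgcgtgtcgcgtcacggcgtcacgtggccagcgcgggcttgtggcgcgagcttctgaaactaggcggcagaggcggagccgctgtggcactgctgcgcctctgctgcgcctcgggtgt
RAD51C: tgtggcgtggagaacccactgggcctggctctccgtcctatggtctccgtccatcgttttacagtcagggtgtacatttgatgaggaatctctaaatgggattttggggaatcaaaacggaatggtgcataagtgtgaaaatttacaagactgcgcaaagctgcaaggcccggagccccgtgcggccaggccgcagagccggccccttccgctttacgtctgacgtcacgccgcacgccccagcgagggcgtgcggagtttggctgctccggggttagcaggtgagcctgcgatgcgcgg

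Summed together, the 9 genes were lowest in strong IR, lower to a lesser degree in Mix1, and closest to NC in weak IR and R. Single genes did not all keep this order. Their summed level was 225 CPM (UMIs per 1e+06 UMIs of the population) in strong IR, 358 in weak IR, 346 in R and 292 in Mix1, against 410 in NC. The ratio to NC was 0.548 (0.523 to 0.574) for strong IR, 0.873 (0.837 to 0.910) for weak IR, 0.844 (0.793 to 0.899) for R and 0.713 (0.685 to 0.743) for Mix1. All 4 ratios share the same 810 NC cells and are not independent of each other. The NC cells and the Mix2 populations share a library, whereas for Mix1 preparation and library cannot be told apart.

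A gene was counted as lower when its ratio was at most 1/1.5 with an interval excluding 1, and it was tested where the 2 populations averaged at least 5 CPM. In strong IR 7 of 8 tested genes were lower than in NC and 0 were higher. Of all 9282 genes tested 14.4% were lower and 10.3% higher by the same rule. The 8 genes, and the gene lists used below, were chosen with earlier results of these data known. Their shares beside those of all genes are therefore descriptive and not an unbiased measure of excess. RAD54L, at 3.096 CPM in strong IR and 4.10 CPM in NC, was under the level limit. The median log2 ratio to NC was −1.07 over the 8 genes and −1.06 with RAD54L included, against −0.09 over all genes tested.

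**Figure D1:**
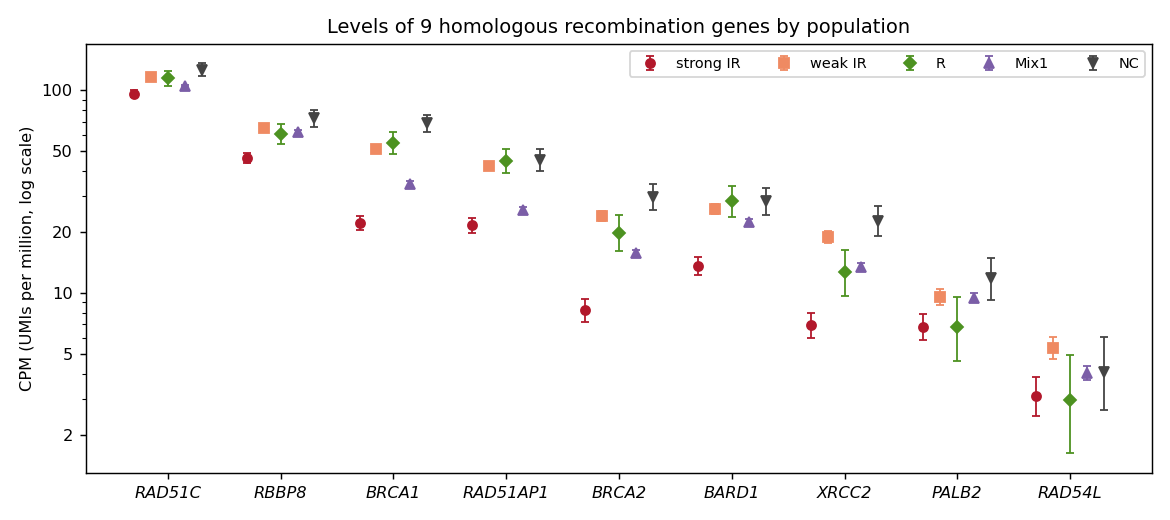
Levels of the 9 genes (y axis, CPM on a log scale) in strong IR, weak IR, R, Mix1 and NC cells, 1 point per population with its exact 95% Poisson interval for counting error. The strong IR point lies below the NC point for each gene, widest apart for BRCA2, XRCC2 and BRCA1, and the RAD54L intervals overlap.

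Among the genes of end trimming and the BRCA1 complex, BRCA1 showed the widest gap. BRCA1 (ENSG00000012048, chromosome 17, 43044295 to 43170245, minus strand, GRCh38) stood at 22.1 CPM (20.3 to 23.9) in strong IR, 51.2 (49.1 to 53.2) in weak IR, 54.9 (48.5 to 62.0) in R and 34.6 (33.6 to 35.5) in Mix1, against 68.8 (62.4 to 75.7) in NC. Its ratio to NC was 0.321 (0.283 to 0.364) in strong IR and 0.503 (0.455 to 0.556) in Mix1. The order of levels was NC, R, weak IR, Mix1 and strong IR, and of neighbours in this order only R and weak IR had overlapping intervals. BARD1 (ENSG00000138376, chromosome 2, 214725646 to 214809683, minus strand), which is unstable as a protein without BRCA1, stood at 13.6 CPM (12.2 to 15.1) in strong IR, 25.9 (24.5 to 27.4) in weak IR, 28.3 (23.7 to 33.5) in R and 22.5 (21.7 to 23.2) in Mix1, against 28.3 (24.3 to 32.9) in NC. Only strong IR was set apart by the rule, at a ratio of 0.480 (0.400 to 0.578). RBBP8 (ENSG00000101773, chromosome 18, 22798261 to 23026488, plus strand) had 46.3 CPM (43.8 to 48.9) in strong IR, 64.8 (62.6 to 67.2) in weak IR, 60.9 (54.0 to 68.3) in R and 62.1 (60.9 to 63.4) in Mix1, against 72.6 (66.0 to 79.7) in NC, and its ratio of 0.638 (0.572 to 0.713) in strong IR was just inside the limit.

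PALB2 and BRCA2, the bridge and the loader of the recombinase, differed in their pattern over the populations. BRCA2 (ENSG00000139618, chromosome 13, 32315086 to 32400268, plus strand) had 8.22 CPM (7.18 to 9.37) in strong IR, 24.0 (22.6 to 25.4) in weak IR, 19.9 (16.1 to 24.3) in R and 15.7 (15.1 to 16.4) in Mix1, against 29.8 (25.6 to 34.5) in NC. The ratio to NC was 0.276 (0.226 to 0.337) in strong IR, 0.666 (0.514 to 0.859) in R and 0.528 (0.454 to 0.617) in Mix1, the lowest of the 9 genes in strong IR. PALB2 (ENSG00000083093, chromosome 16, 23603160 to 23641321, minus strand) had 6.78 CPM (5.84 to 7.84) in strong IR, 9.58 (8.71 to 10.5) in weak IR, 6.76 (4.63 to 9.55) in R and 9.48 (8.99 to 9.98) in Mix1, against 11.8 (9.23 to 14.9) in NC. PALB2 was thus as low in R as in strong IR, with ratios to NC of 0.575 (0.436 to 0.766) in strong IR and 0.573 (0.366 to 0.881) in R, and strong IR over R was 1.003 (0.686 to 1.51). The R value rests on 32 UMIs.

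The paralogs and cofactors of the recombinase differed among themselves. XRCC2 (ENSG00000196584, chromosome 7, 152644776 to 152676193, minus strand) had 6.93 CPM (5.97 to 7.99) in strong IR, 18.8 (17.6 to 20.1) in weak IR, 12.7 (9.68 to 16.3) in R and 13.4 (12.8 to 14.0) in Mix1, against 22.8 (19.1 to 26.9) in NC. RAD51C (ENSG00000108384, chromosome 17, 58692573 to 58735611, plus strand) had 96.0 CPM (92.4 to 99.8) in strong IR, 116 (113 to 119) in weak IR, 115 (105 to 125) in R and 105 (103 to 107) in Mix1, against 126 (118 to 136) in NC. The 2 paralogs therefore lay far apart, with ratios of strong IR to NC of 0.304 (0.243 to 0.382) for XRCC2 and 0.760 (0.701 to 0.825) for RAD51C, whose interval excluded 1 without reaching the limit. RAD51AP1 (ENSG00000111247, chromosome 12, 4538798 to 4560047, plus strand) had 21.6 CPM (19.9 to 23.4) in strong IR, 42.1 (40.3 to 44.03) in weak IR, 44.8 (39.0 to 51.3) in R and 25.6 (24.8 to 26.5) in Mix1, against 45.4 (40.2 to 51.0) in NC. Strong IR and Mix1 were set apart for this gene, at ratios of 0.475 (0.411 to 0.550) and 0.565 (0.5001 to 0.641), while the weak IR, R and NC intervals overlapped. RAD54L (ENSG00000085999, chromosome 1, 46246461 to 46278480, plus strand) had 3.096 CPM in strong IR, 5.38 in weak IR, 2.96 in R and 4.04 in Mix1, against 4.10 (2.65 to 6.05) in NC, and no ratio to NC had an interval excluding 1. After thinning, weak IR over NC was 2.13 (1.09 to 4.75) for RAD54L, on 9 UMIs in NC. Its last exon overlaps LRRC41 on the opposite strand, and whether strand was used in counting is not given in the sources used here.

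CPM is a share of all UMIs, and strong IR cells held more UMIs than NC cells, so the molecules per cell differed less. BRCA1 averaged 0.270 UMIs per strong IR cell, against 0.519 per NC cell, and BRCA2 averaged 0.101 per strong IR cell, against 0.225 per NC cell. RAD51C averaged 1.18 UMIs per strong IR cell, against 0.952 per NC cell, and RBBP8 averaged 0.567 per strong IR cell, against 0.547 per NC cell, so for these 2 genes the captured molecules per strong IR cell were at or above the NC number. The share of positive cells (at least 1 UMI) depends on depth as well, and RAD51C was found in 62.0% of strong IR cells (59.9 to 64.0) and in 59.9% of NC cells (56.4 to 63.3).

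After each cell was thinned at random to 5000 UMIs, which left out 150 strong IR, 1099 weak IR, 96 R, 4963 Mix1 and 111 NC cells, the share of positive cells could be compared at 1 depth. BRCA1 was then found in 9.29% of strong IR cells (8.08 to 10.6), 22.02% of weak IR, 19.7% of R (16.5 to 23.4) and 16.6% of Mix1 cells, against 29.2% of NC cells (25.8 to 32.7). BRCA2 was found in 3.15% of strong IR cells (2.44 to 3.99), against 13.0% of NC cells (10.6 to 15.7), and before thinning in 8.62% of strong IR and 18.6% of NC cells. RAD51C was found in 35.8% of strong IR cells (33.7 to 37.9), against 48.4% of NC cells (44.6 to 52.1). Cells with none of the 9 genes made up 39.4% of strong IR, 19.5% of weak IR, 20.5% of R and 27.7% of Mix1 cells, against 14.3% of NC cells. Cells with at least 3 of the 9 genes made up 5.61% of strong IR, against 23.2% of NC. BARD1 was found in 13.5% (9.04 to 19.2) of BRCA1-positive strong IR cells and in 5.66% of BRCA1-negative ones, and in 10.3% (6.49 to 15.3) of BRCA1-positive NC cells and 14.5% of BRCA1-negative ones.

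Droplets of Mix2 without cells (20682 droplets of 10 to 100 UMIs) gave the level in free RNA, which stood at 188 CPM (145 to 240) for the 9 genes together, against 410 CPM in NC. Their 65 UMIs of the 9 genes were too few to rank the genes. Positive shares in these droplets were at most 0.0677% (RAD51AP1), at depths too low to set beside those of cells. The strong IR point lay below the free-RNA point for BRCA1 (22.1 CPM, against 37.7 in droplets without cells, 20.1 to 64.4), BRCA2 (8.22, against 11.6, 3.16 to 29.7), RAD51AP1 (21.6, against 40.6, 22.2 to 68.1) and BARD1 (13.6, against 26.1, 11.9 to 49.5). For BRCA1, BRCA2 and BARD1 the strong IR value was inside the droplet interval. For RAD51AP1 it was just outside, with overlapping intervals (19.9 to 23.4 in strong IR). No population here lacks these genes by nature, so the part of free RNA in the strong IR values was not measured in cells.

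Cycling genes were lower in strong IR than in NC as well, but their order over the other populations differed from gene to gene. MKI67, a marker of cycling cells, stood at 126 CPM in strong IR, 288 in weak IR, 317 in R and 164 in Mix1, against 334 in NC, and was found in 33.7%, 65.0%, 69.3% and 44.8% of these cells after thinning, against 73.0% of NC cells. TOP2A, which untangles DNA in G2 and M phases, stood at 158 CPM in strong IR, 328 in weak IR, 379 in R and 138 in Mix1, against 381 in NC, so it was lowest in Mix1. CCNB1, the mitotic cyclin, stood at 110 CPM in strong IR, 252 in weak IR, 325 in R and 143 in Mix1, against 271 in NC, and was higher in R than in NC. MCM4, part of the helicase that opens DNA for replication, stood at 27.4 CPM in strong IR, 66.8 in weak IR, 65.9 in R and 60.2 in Mix1, against 78.8 in NC. CDKN1A, an inhibitor of cyclin-dependent kinases induced by p53, ran the other way, at 918 CPM in strong IR, 265 in weak IR, 255 in R and 630 in Mix1, against 180 in NC. Of the S phase list, 39 of 39 genes were lower in strong IR than in NC (14.4% of all genes tested), with a median log2 ratio of −1.20. Of the G2 and M list 51 of 52 were lower, with a median of −1.24. The medians of the cycling lists were thus lower than that of the 8 repair genes (−1.07).

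The irradiated cells of Mix2 were also divided more finely by tag8. The 9 genes summed to 359 CPM at 500 to 999 tag8 counts, 364 at 1000 to 1999, 345 at 2000 to 3159, 283 at 3160 to 4999, 229 at 5000 to 9988 and 174 at 10000 or more. The level differed little over the 3 lower bins and was lower in each of the 3 upper ones. BRCA2 stood at 24.9, 24.6, 22.1, 13.7, 9.19 and 2.88 CPM over the same bins and RAD51C at 115, 115, 119, 105, 97.3 and 87.3 CPM. BRCA2 was thus farther from its level in the lowest bin than RAD51C was. MKI67 stood at 266 CPM in the lowest bin and 59.5 CPM in the highest, and CDKN1A at 255 and 1085 CPM, so the bins differ in cycling as well as in hashtag, and their parts in the result were not tested. Median depth was 5720 UMIs in the lowest bin, 13146 at 5000 to 9988 counts and 11080.5 in the highest.

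**Figure D2:**
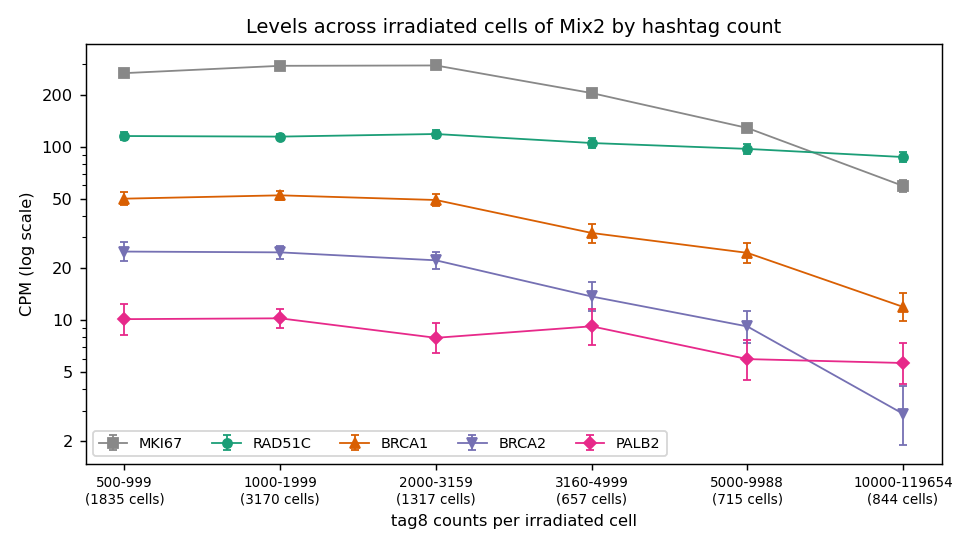
Levels (y axis, CPM on a log scale) of MKI67, RAD51C, BRCA1, BRCA2 and PALB2 in irradiated Mix2 cells grouped by tag8 count (x axis, lowest to highest), each point a pool of the cells given below it with its exact 95% Poisson interval. BRCA2 stands at 24.9 CPM in the lowest bin and 2.88 CPM in the highest, and RAD51C at 115 and 87.3 CPM.

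To part the repair genes from cycling, the populations were compared within cells with at least 1 MKI67 UMI. These were 1054 strong IR, 4297 weak IR, 468 R, 7343 Mix1 and 651 NC cells. In MKI67-positive cells 5 of 8 tested genes were lower in strong IR than in NC, where 8.1% of all genes tested were lower, and the sum of the 9 genes was 290 CPM in strong IR, against 422 in NC, a ratio of 0.688 (0.654 to 0.725). The ratios were 0.415 (0.335 to 0.514) for BRCA2, 0.419 (0.329 to 0.535) for XRCC2, 0.473 (0.413 to 0.542) for BRCA1, 0.610 (0.444 to 0.844) for PALB2 and 0.663 (0.543 to 0.813) for BARD1. RAD51AP1 at 0.675, RBBP8 at 0.771 and RAD51C at 0.893 did not reach the limit. Each of the 5 lower genes was nearer to NC within MKI67-positive cells than over all cells, and PALB2 least so.

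The gate did not make the cells alike. MKI67 itself was lower in gated strong IR cells than in gated NC cells, at a ratio of 0.574 (0.543 to 0.607), and MCM4 at 0.504 (0.443 to 0.574), while CDKN1A was at 4.01 (3.74 to 4.30). The gate also admits more cells at higher depth, and the gated cells held medians of 13722 UMIs in strong IR, against 7429 in NC. With cells thinned to 5000 UMIs before the gate, MKI67 was at 0.827 (0.763 to 0.897) and 4 of 8 genes were lower in strong IR than in NC (5.69% of all genes tested), BRCA1 at 0.487 (0.385 to 0.615), BRCA2 at 0.436 (0.293 to 0.641), XRCC2 at 0.444 (0.287 to 0.680) and PALB2 at 0.502 (0.286 to 0.869). BARD1, at 0.786 (0.575 to 1.08), was no longer lower. These thinned and gated cells still differed in cycling. MCM4 was at 40.2 CPM in strong IR, against 81.2 in NC, TOP2A at 305, against 412, and CDKN1A at 562, against 169. The S phase list had a median log2 ratio of −0.55 and the G2 and M list one of −0.50.

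Within strong IR, the repair genes other than PALB2 stood higher in MKI67-positive than in MKI67-negative cells. In strong IR the ratio of MKI67-positive to MKI67-negative cells was 6.23 (4.12 to 9.77) for BRCA2, 4.77 (3.80 to 6.05) for BRCA1, 3.72 (2.55 to 5.57) for XRCC2, 3.67 (2.97 to 4.57) for RAD51AP1 and 3.02 (2.34 to 3.92) for BARD1. It was 1.68 (1.49 to 1.89) for RBBP8, 1.48 (1.37 to 1.61) for RAD51C and 1.28 (0.942 to 1.74) for PALB2. PALB2 was the only tested gene in strong IR whose interval included 1. In NC the same ratio was 1.67 (1.04 to 2.85) for BRCA2, 1.47 (1.09 to 2.03) for BRCA1 and 0.987 (0.815 to 1.203) for RAD51C. Weak IR lay nearer to NC than to strong IR for BRCA2, at 1.70 (1.44 to 2.00), BRCA1, at 1.82 (1.62 to 2.04), and XRCC2, at 1.76 (1.46 to 2.13, against 1.89 in NC). Mix1 had wide ratios too, at 4.01 (3.58 to 4.49) for BRCA2, 3.78 (3.35 to 4.27) for XRCC2 and 3.51 (3.26 to 3.78) for BRCA1. RAD51AP1 in Mix1 was at 3.24 (2.99 to 3.52), BARD1 at 3.12 (2.86 to 3.41) and PALB2 at 1.45 (1.30 to 1.62). In R the ratio was 1.45 (1.03 to 2.08) for BRCA1 and 0.866 (0.468 to 1.71) for XRCC2, and of the 8 tested genes BRCA1 alone had an interval excluding 1. In the MKI67-negative cells, 1162 of strong IR and 159 of NC, 7 of 8 genes were lower in strong IR (16.7% of all genes tested), with BRCA2 at 2.12 CPM, against 19.1 in NC, BRCA1 at 7.19, against 49.3 in NC, and RAD51C at 75.9, against 128 in NC. MKI67-negative NC cells still had MCM4 at 82.4 CPM, against 12.7 CPM in MKI67-negative strong IR cells, so absence of an MKI67 UMI did not mark the same state in both.

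**Figure D3:**
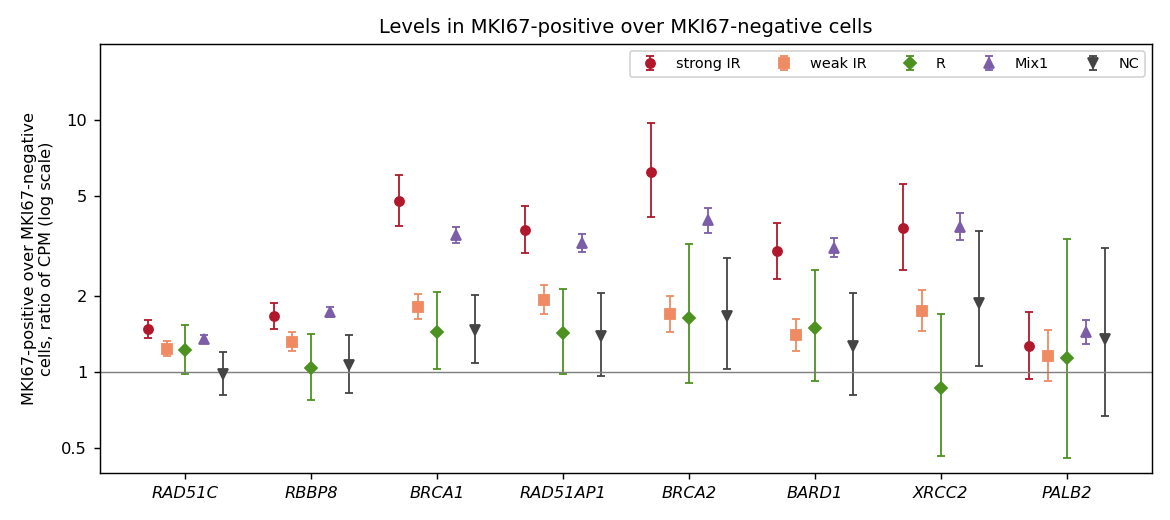
Ratio of CPM in MKI67-positive to MKI67-negative cells of the same population (y axis, log scale) for the 8 tested genes, 1 point per population with its exact 95% interval and a line at 1. BRCA2, BRCA1, RAD51AP1, BARD1 and XRCC2 lie between 3.02 and 6.23 in strong IR and between 3.12 and 4.01 in Mix1, while the NC points lie at or below 1.89.

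The comparison was then made at a matched cell cycle state. Thinned cells were placed in 16 strata by their UMIs of the S phase list and of the G2 and M list, each cut at the NC quartiles (15, 19 and 23 UMIs, and 25.5, 34 and 48 UMIs), and each population was weighted to the NC mix of strata. None of the 9 genes is in either list. Their sum rests most on RAD51C and RBBP8. These 2 had 0.469 and 0.222 UMIs per thinned strong IR cell, of 1.07 for the 9 genes, and 0.667 and 0.362 per NC cell, of 2.09. The lowest S phase class held 82.6% of strong IR cells, 40.1% of weak IR, 41.5% of R and 58.7% of Mix1, against 28.5% of NC. In the upper 3 classes the 9 genes together had 1.84, 2.05 and 2.47 UMIs per strong IR cell, against 2.02, 2.13 and 2.65 per NC cell, with overlapping intervals in each class. In the lowest class they had 0.872 (0.828 to 0.917) per strong IR cell, against 1.66 (1.49 to 1.85) per NC cell. That class has no lower bound, so cells of differing S phase content are joined in it. By classes of the G2 and M list, the 9 genes had 0.866 (0.821 to 0.912) and 1.66 (1.48 to 1.85) UMIs per strong IR cell in the 2 lower classes, against 2.03 (1.82 to 2.25) and 2.19 (1.97 to 2.42) per NC cell, with no overlap in either class. In the 2 upper classes the intervals overlapped, at 1.84 and 1.97 per strong IR cell, against 2.19 and 1.95 per NC cell.

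**Figure D4:**
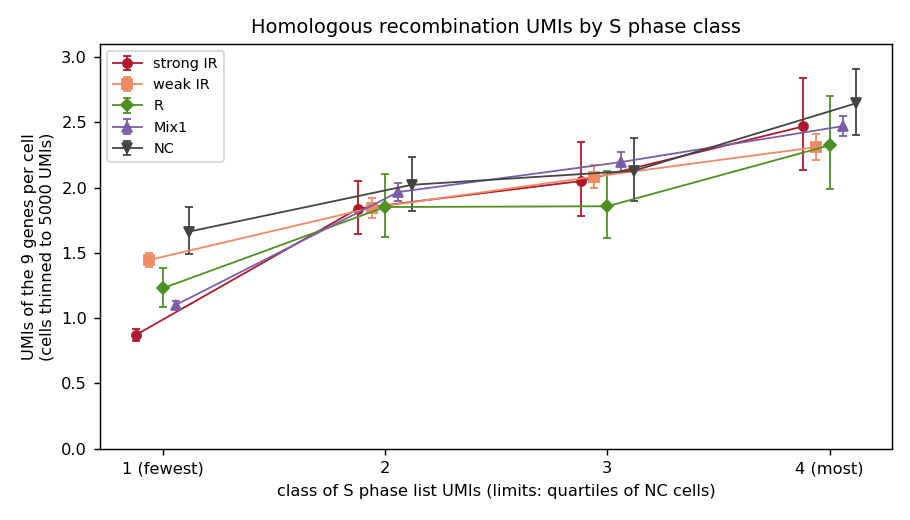
UMIs of the 9 genes per cell thinned to 5000 UMIs (y axis) by class of S phase list UMIs (x axis, limits at the NC quartiles), 1 line per population with exact 95% Poisson intervals. The populations overlap in the upper 3 classes and part in the lowest, where strong IR has 0.872, Mix1 1.10 and NC 1.66 UMIs per cell.

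With the NC mix of strata, the sum of the 9 genes in strong IR was at 0.912 (0.839 to 0.992) of NC, against 0.514 for thinned cells without weights. RAD51C at 1.02 (0.890 to 1.18), RAD51AP1 at 1.06 (0.841 to 1.35), BARD1 at 1.09 (0.807 to 1.46), RBBP8 at 0.954 (0.783 to 1.16) and XRCC2 at 0.839 (0.557 to 1.26) had intervals that included 1. BRCA1 at 0.670 (0.530 to 0.846), BRCA2 at 0.621 (0.430 to 0.897) and PALB2 at 0.408 (0.227 to 0.731) stayed below it. These were the 3 genes whose intervals excluded 1 after weighting in strong IR, and BRCA2 and PALB2 passed the limit of 1/1.5. The smallest strong IR stratum held 6 cells. The intervals are from a normal approximation of counting error on the log scale. A stratum without UMIs of a gene adds nothing to its interval, so the intervals can be too narrow. This applies most to genes with few UMIs, such as PALB2 with 68 UMIs in thinned strong IR cells. In Mix1 the weighted sum was at 0.969 (0.918 to 1.02) of NC, with BRCA1 at 0.805 (0.704 to 0.921), PALB2 at 0.954 (0.699 to 1.30) and BRCA2 at 0.933 (0.757 to 1.15), so of these 3 only BRCA1 was below 1 beyond its interval. BARD1 in Mix1 lay above NC after weighting, at 1.23 (1.004 to 1.503), and so did RAD54L, which is under the level limit, at 2.41 (1.24 to 4.71). RAD51C, at 0.908 (0.824 to 0.99996), lay just below. In weak IR the weighted sum was at 0.918 (0.869 to 0.971) of NC. There BRCA1 at 0.812 (0.708 to 0.931) and RAD51C at 0.898 (0.814 to 0.991) lay below NC beyond their intervals. RAD54L, under the level limit, lay above at 2.31 (1.18 to 4.55). PALB2 at 0.771 (0.559 to 1.06) and BRCA2 at 0.929 (0.751 to 1.15) had intervals that included 1.

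**Figure D5:**
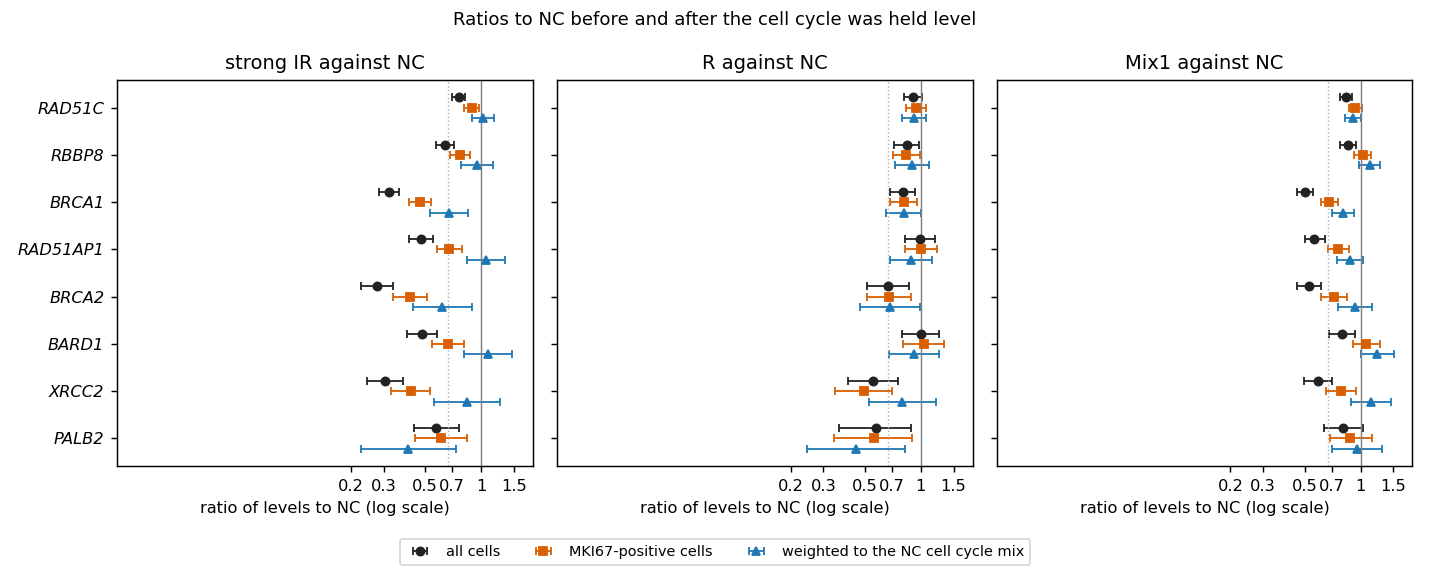
Ratios to NC (x axis, log scale, lines at 1 and at 1/1.5) of the 8 tested genes in strong IR, R and Mix1, for all cells, for MKI67-positive cells and for thinned cells weighted to the NC mix of cell cycle strata, with 95% intervals for counting error. In strong IR the weighted values of RAD51C, RBBP8, RAD51AP1, BARD1 and XRCC2 reach 1 within their intervals, and those of BRCA1, BRCA2 and PALB2 do not.

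In R, the repopulated cells, 3 of 8 tested genes were lower than in NC, where 1.91% of all 9197 genes tested were lower. These were XRCC2 at 0.557 (0.404 to 0.759), PALB2 at 0.573 (0.366 to 0.881) and BRCA2 at 0.666 (0.514 to 0.859), which lies just inside the limit. BRCA1 was at 0.799 (0.682 to 0.934), RAD51AP1 at 0.987 (0.822 to 1.19) and BARD1 at 0.999 (0.791 to 1.26). MKI67 in R was at 0.949 (0.887 to 1.01) of NC, and 0 of 39 S phase and 0 of 52 G2 and M genes were lower by the rule. The S phase genes nevertheless had a median log2 ratio of −0.21 in R with 89.7% of them below NC, against −0.29 for the 8 repair genes and −0.04 for the G2 and M genes, so S phase expression moved with the repair genes in R and its part was not tested. In MKI67-positive cells 2 of 8 were lower in R than in NC (1.91% of all genes tested), PALB2 at 0.563 (0.342 to 0.902) and XRCC2 at 0.498 (0.347 to 0.703), with BRCA2 at 0.678 (0.513 to 0.890). After weighting to the NC mix, PALB2 in R was at 0.449 (0.244 to 0.826), BRCA2 at 0.683 (0.473 to 0.987) and XRCC2 at 0.795 (0.525 to 1.21). The weighted sum of the 9 genes in R was at 0.859 (0.787 to 0.937). The weighted PALB2 value rests on 15 UMIs in thinned R cells, against 45 in NC, and the smallest R stratum held 7 cells. Weighted BRCA1 in R was at 0.808 (0.647 to 1.01). With a tag share of 95%, which left 44 R and 88 NC cells, or under 5% mitochondrial UMIs, which left 31 R and 172 NC cells, 0 of the genes were lower in R.

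In weak IR 0 of 8 tested genes were lower than in NC (0.587% of all genes tested), and BRCA1 was farthest from NC, at 0.744 (0.670 to 0.827). In MKI67-positive weak IR cells 0 of 8 were lower (0.881% of all genes tested), with BRCA1 at 0.790 (0.707 to 0.885). Strong IR set against weak IR, within the irradiated cells of Mix2, gave 5 of 8 lower (9.8% of all genes tested), with BRCA2 at 0.343 (0.296 to 0.396), XRCC2 at 0.368 (0.313 to 0.431) and BRCA1 at 0.432 (0.394 to 0.472). Strong IR set against R also gave 5 of 8 lower (11% of all genes tested), with BRCA1 at 0.402 (0.347 to 0.467) and BRCA2 at 0.414 (0.324 to 0.532). In MKI67-positive cells 3 of 8 were lower against weak IR (393 of 9261 genes tested) and 3 of 8 against R (553 of 9293). With cells thinned before the gate, 3 of 8 were lower against weak IR (296 of 9220). Against R 0 of 8 were then lower (379 of 9267), with a median log2 ratio of −0.16.

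In Mix1 4 of 8 tested genes were lower than in NC (9.44% of all genes tested), namely BRCA1, BRCA2, RAD51AP1 at 0.565 (0.5001 to 0.641) and XRCC2 at 0.588 (0.495 to 0.703). In MKI67-positive cells 0 of 8 were lower (5.36% of all genes tested), and BARD1 at 1.07 (0.907 to 1.27) and RBBP8 at 1.03 (0.926 to 1.14) lay near NC while BRCA1 was at 0.679 (0.611 to 0.757). Mix1 set against strong IR, both irradiated, had 4 of 8 genes higher (3.48% of all genes tested), BRCA2 at 1.91 (1.67 to 2.20), XRCC2 at 1.93 (1.66 to 2.25), BARD1 at 1.65 (1.48 to 1.84) and BRCA1 at 1.57 (1.44 to 1.71). In MKI67-positive cells BRCA2, XRCC2 and BARD1 were still higher in Mix1 than in strong IR (4.47% of all genes tested), at 1.73 (1.495 to 2.01), 1.87 (1.58 to 2.22) and 1.61 (1.43 to 1.82). MCM4 was at 2.17 (1.99 to 2.36) in the same comparison.

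Of 47 other genes of homologous recombination and its helpers, 40 were tested in strong IR against NC. Of these 25 were lower (14.4% of all genes tested) and 0 were higher (10.3%), and the median log2 ratio was −0.77. This list too was chosen with earlier results of these data known, so the shares are descriptive. The lowest were DNA2, a nuclease of long-range end trimming, at 3.02 CPM in strong IR, against 10.8 in NC, a ratio of 0.280 (0.1997 to 0.393), RAD54B, a relative of RAD54L, at 0.310 (0.237 to 0.406), and GEN1, which cuts joined chromatids apart, at 0.311 (0.237 to 0.410). The highest were FBH1, a helicase that takes the recombinase off DNA, at 24.2 CPM in strong IR, against 17.2 in NC, a ratio of 1.41 (1.14 to 1.74), BABAM2 at 1.19 (0.936 to 1.54) and ABRAXAS1 at 1.11 (0.867 to 1.42). BABAM2 and ABRAXAS1 belong to the BRCA1-A complex, which holds BRCA1 back from end trimming. In MKI67-positive cells 19 of 41 genes of this list were lower (8.1% of all genes tested), with a median of −0.51.

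The end-joining genes, which repair breaks without a sister chromatid, were lower as well. Of 17 tested of 20 listed, 7 were lower in strong IR than in NC (14.4% of all genes tested) and 0 were higher (10.3%). These shares are descriptive as well, since the list was chosen with earlier results of these data known. The median log2 ratio was −0.53. POLQ, the polymerase of microhomology-mediated joining, was at 4.61 CPM in strong IR, against 12.8 in NC, a ratio of 0.361 (0.270 to 0.485), and RIF1, which shields ends from trimming, was at 0.447 (0.398 to 0.502). POLL, a gap-filling polymerase, was at 1.29 (1.04 to 1.62) and DCLRE1C (Artemis), an end-opening nuclease, at 0.828 (0.613 to 1.13). In MKI67-positive cells 4 of 17 end-joining genes were lower (8.1% of all genes tested). Their median was −0.48, close to the −0.51 of the wider recombination list, and the difference between the lists was not tested. In R 2 of 42 tested genes of the wider recombination list (DNA2 and BRIP1, named after their values were seen) and 0 of 17 end-joining genes were lower than in NC. Of all genes tested in R 1.91% were lower.

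The genes whose 4 log2 ratios to NC lay nearest to those of the 9 genes together, among genes averaging at least 50 CPM, were BCLAF1, DUT, IPO5, NOL11 and U2SURP, with root mean square differences of 0.03 to 0.05 over the 4 populations. DUT, the enzyme that keeps uracil out of DNA, had log2 ratios of −0.80 in strong IR, −0.18 in weak IR, −0.23 in R and −0.52 in Mix1, where the 9 genes together had −0.87, −0.20, −0.24 and −0.49.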

How the data were processed

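The deposited matrices hold whole UMI counts that were not normalized, made by the authors on GRCh38 with Cell Ranger (3.1.0 for Mix1 and 3.0.1 for Mix2, per the file headers). mm10 is also listed among the builds with no role, and the submitters' notes name Seurat 2.3. An unfiltered Mix2 matrix of 6794880 barcodes had 0 differing entries over the Mix2 barcodes and served only as a source of droplets without cells. Cells kept were 15630 of 17019 (Mix1) and 11652 of 13888 (Mix2), of which 1671 entered no population. No doublet caller was run, and the tag share of 80% removes droplets of mixed tags only. Mix1 carries no tags, and its 15630 kept cells exceed the 10000 cells given as loaded. The cause of this excess was not tested.

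UMIs of each population were summed and expressed as CPM. Poisson, conditional binomial and Clopper-Pearson intervals (scipy 1.17.1) cover counting error only. No test was made, since each population is 1 sample. Thinning used 1 random draw. The script was tested on simulated data. The 9 genes and all lists were chosen with earlier results of these data known. Other genes named are the 3 lowest and 3 highest of the wider recombination list, 2 and 2 of end joining, 5 cycling or arrest genes and the 5 nearest in pattern. Positions are from GENCODE 44 and promoters from RefSeq, matched for 9 of 9 genes. Values of some genes are not reported here. Alternatives changed the hashtag purity, mitochondrial limit, scaling, cell weighting, depth, background, level limit, fold limit, highest-UMI cells, MKI67 gate and tag8 split.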

Additional observations from a re-analysis of the deposited data

Results flagged for a closer look

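UMIs of 6 of the 9 genes were found in Mix2 droplets without cells, above the 3 UMIs that a count of 0 allows. Among 345027 UMIs in 20682 such droplets, RAD51AP1 had 14, BRCA1 13, RAD51C 12, BARD1 9, RBBP8 7 and BRCA2 4. RAD51AP1 stood at 40.6 CPM (22.2 to 68.1) in these droplets, against 21.6 CPM in strong IR and 45.4 CPM in NC cells, and BARD1 at 26.1 (11.9 to 49.5), against 13.6 in strong IR and 28.3 in NC. RAD51C stood at 34.8 (18.0 to 60.8), against 96.0 in strong IR and 126 in NC. Subtracting this profile at 10% of the UMIs of each Mix2 population left the counts of lower genes within 1.5 times those without subtraction, in the comparisons within Mix2.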

How the results depend on the processing

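Of the ratios of single genes under the alternatives, 967 stayed within the interval of the main value, 103 moved outside it and 1 reversed. The 967 include the settings that changed only the level limit or the fold limit, in which a ratio could not change. The reversed ratio was BARD1 in strong IR against NC, at 1.09 (0.807 to 1.46) in all thinned cells weighted to the NC cycle mix. It was set against 0.663 in MKI67-positive cells, and all thinned cells without weights gave 0.472. Counts of lower genes over all cells that moved were R 0 (main 3) with a tag share of 95%, under 5% mitochondrial UMIs and at a ratio of 2, Mix1 0 at a ratio of 2, weak IR 1 under 5% mitochondrial UMIs and 1 at a looser ratio limit of 5/4, and irradiated cells 3 (strong IR main 7) with all tag8 cells of at least 500 counts pooled. In MKI67-positive cells strong IR (main 5) gave 3 at a ratio of 2 and 3 without the 5% of cells with most UMIs. R (main 2) gave 0 with the 95% tag share, 0 under 5% mitochondrial UMIs, and 1 at a ratio of 2 and without the highest-UMI cells. Weighting took all thinned cells and not MKI67-positive ones, and gave 2 in strong IR and 1 in R (main over all cells 7 and 3). For MKI67-positive cells the other populations moved as well. Mix1 (main 0) gave 1 with the 95% tag share, 1 under 5% mitochondrial UMIs, 1 with a TOP2A gate and 4 at the looser ratio, and weak IR (main 0) gave 1 at the looser ratio and 1 in another random thinning, which was added after the data were seen. The stricter tag share left 44 R and 88 NC cells and the mitochondrial limit 31 and 172, so fewer UMIs widen those intervals. The cause of the other moves was not tested. Background subtraction was not run for Mix1, for which no droplets without cells were used. No paired analysis was possible because each population is 1 sample.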

Other observations

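Barcodes outside the 5 populations also held the 9 genes. Their summed level was 202 CPM (193 to 212) in 1389 Mix1 barcodes and 218 CPM (210 to 226) in 2236 Mix2 barcodes with at least 10% mitochondrial UMIs. It was 312 CPM (288 to 336) in 1070 kept Mix2 cells with mainly tag8 but under 500 counts, at a median of 962.5 UMIs, and 342 CPM (329 to 356) in 594 kept Mix2 cells in which no tag reached 80%, at a median of 12296 UMIs. MKI67 stood at 97.2, 134, 252 and 276 CPM in these sets.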
